A study of Mus musculus with 8 samples.

Results

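The cells described here were epithelial cells of mouse dorsal skin that carried transcripts of smooth muscle genes together with a set of hair follicle genes. They were chosen on measured values. A cell barcode entered when it held 500 to 4000 genes, at most 20000 unique molecular identifiers (UMIs, 1 per captured RNA molecule) and at most 10% mitochondrial UMIs, at least 5 UMIs of the basal keratins Krt5 and Krt14 together, at least 4 of the 7 genes Tagln, Dio3, Acta2, Foxe1, Fgf5, Slc1a3 and Cntfr, fewer than 1% collagen UMIs (Col1a1, Col1a2 and Col3a1), fewer than 3 UMIs of the pericyte gene Rgs5 and none of the leukocyte gene Ptprc. This left 581 cells of 4888 keratin-gated epithelial cells, 11118 cells that passed the quality filter and 26231 barcodes in all. They are called Acta2/Tagln epithelial cells below.

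The study treated skin scars of mice with PBMCsec, the medium that human peripheral blood mononuclear cells had conditioned after irradiation, and profiled the skin as single cells. All animals were female BALB/c mice aged 14 to 16 weeks, and each of the 8 libraries came from 1 mouse. At the dorsal skin, 4 mice were injected with PBMCsec and 4 with a vehicle. The paper describes its injections of scars as intradermal. Whole 4 mm biopsies were dissociated with enzymes, and cells that excluded the dye DAPI were sorted before capture. The labels do not say which mice were taken at which time after treatment or which control solution each received, so libraries were grouped by treatment alone.

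The outer root sheath is the outermost epithelial layer of the hair follicle. It is continuous with the basal epidermis above and with the stem cells of the bulge, and it grows down to the bulb when the follicle produces hair. Fgf5 is a growth factor known for ending the growth phase of the hair. Acta2 (alpha smooth muscle actin) and Tagln (transgelin) are classical genes of smooth muscle and of myofibroblasts, and in those cells serum response factor (SRF) switches them on through a short DNA element, the CArG box. Dio3 inactivates thyroid hormone, Foxe1 is a forkhead transcription factor of follicle and thyroid, Slc1a3 is a glutamate transporter and Cntfr is the receptor subunit for ciliary neurotrophic factor.

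The genes that set the rule lie on separate chromosomes or far apart. In GENCODE M21 (GRCm38, the mm10 assembly of the files), Acta2 (ENSMUSG00000035783) spans chr19:34241090-34255590, Tagln (ENSMUSG00000032085) chr9:45929619-45936058, Fgf5 (ENSMUSG00000029337) chr5:98254184-98277030, Dio3 (ENSMUSG00000075707) chr12:110279068-110281097, Slc1a3 (ENSMUSG00000005360) chr15:8634124-8710764, Foxe1 (ENSMUSG00000070990) chr4:46343609-46346412 and Cntfr (ENSMUSG00000028444) chr4:41657498-41697089. The promoters of Acta2, which helped to choose the cells, and of Myl9, a smooth muscle myosin light chain that did not, are printed below to show the sequence in front of these genes. Each runs from 250 bases before to 50 bases after the RefSeq start (GRCm38.p6), at chr19:34255324-34255623 on the minus strand and at chr2:156775214-156775513 on the plus strand. Capitals mark CArG boxes and stretches that differ from the box at 1 position, searched on both strands.
Acta2: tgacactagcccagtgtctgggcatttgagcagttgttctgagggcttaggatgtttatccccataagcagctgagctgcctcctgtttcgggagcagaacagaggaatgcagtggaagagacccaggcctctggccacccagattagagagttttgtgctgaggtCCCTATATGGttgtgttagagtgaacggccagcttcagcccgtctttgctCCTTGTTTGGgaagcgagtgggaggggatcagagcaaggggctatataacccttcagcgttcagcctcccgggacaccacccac
Myl9: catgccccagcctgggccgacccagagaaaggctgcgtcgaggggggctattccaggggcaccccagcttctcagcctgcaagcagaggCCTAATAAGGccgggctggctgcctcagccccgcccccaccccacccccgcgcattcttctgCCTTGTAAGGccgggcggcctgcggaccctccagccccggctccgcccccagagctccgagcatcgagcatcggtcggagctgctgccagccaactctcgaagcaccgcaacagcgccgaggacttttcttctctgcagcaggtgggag

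The Myl9 window held 1 exact box, which began 161 bases before the start, and 1 stretch with 1 differing letter at 99 bases. The Acta2 window held no exact box and 2 stretches with 1 differing letter, at 84 and 34 bases. Of all 32851 promoter windows of this length, 1.63% held an exact box and 21.1% held a box or a stretch with 1 differing letter. Of the 30 smooth muscle genes listed for this work, 26 had a window, and 4 of them (Cnn2, Myl6, Myl9 and Vcl) held an exact box, in 4 of 31 windows (12.9%). Of the 7 rule genes, 5 had a window. None of their 10 windows held an exact box, and 2 (20%) held a stretch with 1 differing letter. A match of letters is a description and not evidence of binding. Windows for Tagln and Foxe1 were not analysed here.

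The epithelial label was checked mainly against markers outside the rule, since the rule itself required Krt5 and Krt14. Krt15 was found in 98.5% of the 581 cells, Krt17 in 97.8% and Trp63, the master regulator of stratified epithelium, in 98.1%. Markers of other cells that carry Acta2 were mostly absent. Of 12 pericyte and vascular smooth muscle genes, 8 had no UMI in any of the 581 cells (Rgs5, which the rule also limited, Myh11, Des, Kcnj8, Abcc9, Higd1b, Rgs4 and Gja4), and a count of 0 allows at most 0.516 CPM, the UMIs of a gene per 1000000 UMIs of the cells pooled. The 12 genes summed to 274 CPM, of which Cspg4, at 237 CPM, made up most (79.4 CPM in Rgs5-positive cells), against 13991 CPM in 75 Rgs5-positive cells, of which 36.0% were among the highest doublet scores. The 10 fibroblast genes summed to 148 CPM, against 48478 CPM in the Acta2-carrying fibroblasts of the same libraries. They include Col1a1, Col1a2 and Col3a1, which the rule limited and which also chose those fibroblasts. The Rgs5-positive cells were likewise chosen by Rgs5, so both contrasts were partly set in advance. The leukocyte genes, among them Ptprc, which the rule excluded, summed to 15.3 CPM, led by Cd74. The gates on collagen and Rgs5 removed none of the 583 keratin-positive cells that held at least 4 of the 7 genes, and the Ptprc gate removed 2. Contraction itself was not measured, so the word contractile refers to genes only.

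The cells were of good depth. They held a median of 10309 UMIs and 3500 genes, against 9057 UMIs in all gated epithelial cells, and a median of 5.17% mitochondrial UMIs against 5.07%. A rule that counts detected genes favours deep cells. After each cell was thinned to 3000 UMIs, 233 cells still held 4 of the 7 genes. Of the cells, 1.55% were among the 5% of highest Scrublet scores in their library, against 2.19% of all gated epithelial cells, although the caller itself marked only 20 of the 11118 cells and cannot be taken as working. Libraries shared 78 barcodes over their 28 pairs, and no shared barcode was an Acta2/Tagln epithelial cell in both.

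The number of rule genes had no gap at the limit. Of the gated epithelial cells, 3009 held none, 760 held 1, 302 held 2 and 236 held 3, while 169 held 4, 151 held 5, 141 held 6 and 120 held all 7. Cells just outside, with 3 genes, had 666 CPM of Acta2 and 423 CPM of Tagln. These values include part of the 17 Cnn1 and Myh11 cells of PBMCsec 2 described below. All 17 held Acta2 and Tagln, at 10710 and 5978 CPM, and 35.3% of them also held Cntfr. The level of the other cells with 3 genes was therefore lower than printed and is not given here. Cells just inside, with 4 genes, had 789 CPM of Acta2 and 808 CPM of Tagln. The counts of cells thus ran on across the limit, while Acta2 and Tagln, which helped to choose the cells, were higher just inside it.

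**Figure D1:**
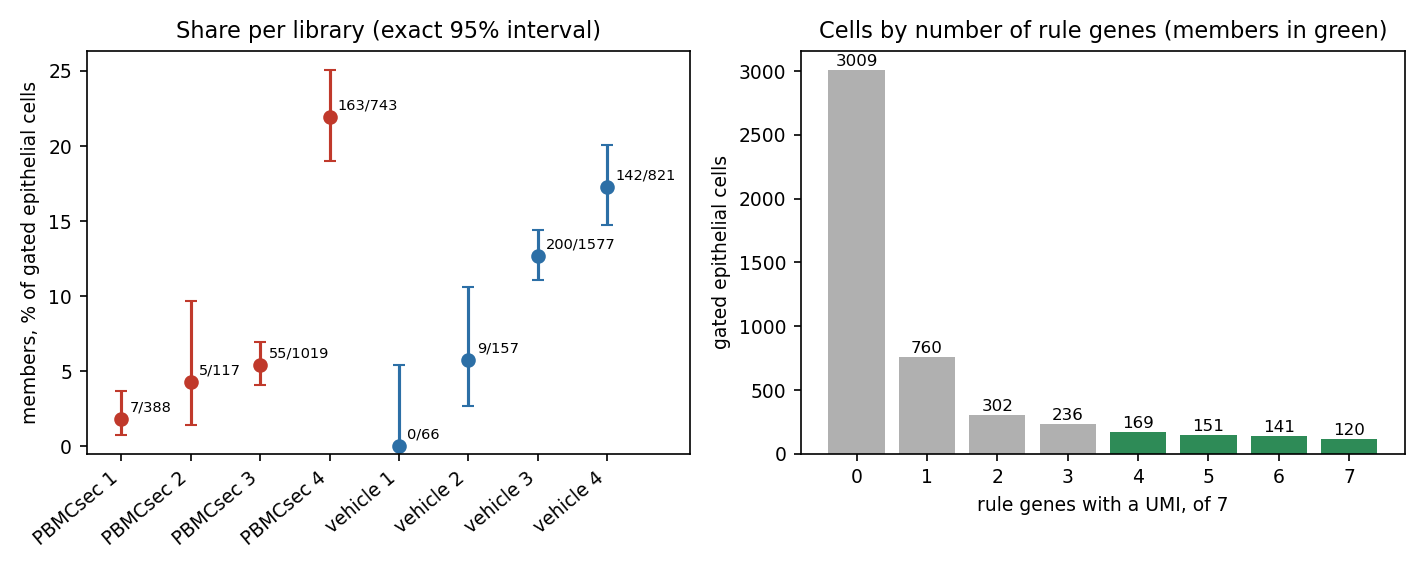
The left panel plots the Acta2/Tagln epithelial cells (members) as a percentage of the gated epithelial cells of each library, with exact 95% binomial intervals and the counts beside each point (PBMCsec in red, vehicle in blue). The right panel counts gated epithelial cells by how many of the 7 rule genes they held, and the green bars from 4 genes upward add up to the 581 members.

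The cells came almost entirely from the libraries numbered 3 and 4. After PBMCsec, the libraries numbered 1 to 4 held 7 of 388, 5 of 117, 55 of 1019 and 163 of 743 gated epithelial cells, or 1.80%, 4.27%, 5.40% and 21.9%. After vehicle, they held 0 of 66, 9 of 157, 200 of 1577 and 142 of 821, or 0%, 5.73%, 12.7% and 17.3%. For the count of 0 in vehicle 1, a limit of 3 cells corresponds to a share of 4.55%, and the exact 95% binomial interval reaches 5.44%. The 4 libraries numbered 1 and 2 together gave 21 of the cells and the 4 numbered 3 and 4 gave 560. The labels attach no batch, day or cage to these numbers. Both groups held low and high libraries, and their ranges overlapped.

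The share of Acta2/Tagln epithelial cells did not differ detectably between treatments. In the PBMCsec libraries it was 8.35% ± 9.18 (SD, n = 4) of gated epithelial cells. In the vehicle libraries it was 8.93% ± 7.62 (SD, n = 4). PBMCsec minus vehicle came to −0.57 percentage points (two-sided exact permutation test over the 70 labellings, p = 0.943; the smallest p that this design allows is 0.0286). Of all cells that passed the quality filter, the PBMCsec libraries held 3.49% ± 4.51 (SD, n = 4). The vehicle libraries held 4.31% ± 3.84 (SD, n = 4), and the ranges overlapped again (exact permutation p = 0.886). The spread within each group far exceeded the difference of the means, and the sign changed when any of 5 single libraries was left out for the share of gated epithelial cells and any of 4 for the share of all filtered cells. Within the libraries numbered 3 and 4, the 2 PBMCsec shares (5.40% and 21.9%) lay to either side of the 2 vehicle shares.

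The genes that chose the cells were at the following levels, given as a description with no test. Acta2 stood at 1769 and 1962 CPM in PBMCsec 3 and 4 and at 1484 and 1377 CPM in vehicle 3 and 4, the 4 libraries with at least 10 of the cells. In gated epithelial cells with at most 1 rule gene (3769 cells, here called rule-negative cells), pooled over the 8 libraries, Acta2 was at 5.44 CPM. Over all 581 cells it was at 1609 CPM, below the 3051 CPM of 75 Rgs5-positive cells and the 2265 CPM of 58 Acta2-carrying fibroblasts. Tagln stood at 2192, 1930, 1208 and 1313 CPM in the same 4 libraries and at 2455 CPM in the Rgs5-positive cells. Both genes were detected in 464 cells (79.9%), at least 10 UMIs of each in 199 cells (34.3%), and neither in 27 cells (4.65%).

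The other 5 genes of the rule are given in the same way. Over all 581 cells, Slc1a3 was at 383 CPM, Cntfr at 295 CPM, Foxe1 at 280 CPM, Fgf5 at 164 CPM and Dio3 at 158 CPM. In the Rgs5-positive cells no UMI of any of these 5 was found. Fgf5 stood at 109 and 125 CPM in PBMCsec 3 and 4 and at 244 and 146 CPM in vehicle 3 and 4, and it was detected in 286 cells (49.2%). Dio3 was detected in 303 cells (52.2%) and both together in 160 cells (27.5%). Free RNA can give UMIs in cells that do not express a gene. In 2140 leukocytes of the same libraries, which should lack both genes, Acta2 was detected in 2.38% of cells and Fgf5 in 0.187%, at a median depth of 3852.5 UMIs per leukocyte against 10309.

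Smooth muscle genes outside the rule were high as well. Of 28 listed genes other than Acta2 and Tagln, 17 were seen in at least 10% of either kind of cell. Of these 17, 14 were higher in the Acta2/Tagln cells than in rule-negative cells in each of the 4 libraries, 12 of them at least 2-fold, and none was lower in all 4. Over all 8695 genes seen this often, 7.40% were at least 2-fold higher by the same measure and 6.01% at least 2-fold lower. At any fold, 48.4% of all genes were higher in each of the 4 libraries and 19.1% lower, so the counts at any fold below are to be read against those shares. The median log2 ratio (pooled CPM plus 10) was 1.60 for the listed genes and 0.19 for all genes. Since the cells were chosen for Acta2 and Tagln, genes that go along with them are part of the same choice, and no test was made.

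Among the filament genes, Myl9 stood at 502 and 493 CPM in PBMCsec 3 and 4 and at 370 and 361 CPM in vehicle 3 and 4. In the rule-negative cells of these libraries Myl9 lay between 10.5 and 24.9 CPM, so the ranges were far apart. Cald1 (caldesmon, which regulates actin and myosin) was at 1550 CPM against 202 CPM, and Tpm1 (tropomyosin) at 1525 CPM against 386 CPM. Smtn (smoothelin) reached 379 CPM, above the 59.5 CPM of rule-negative cells and above the 34.7 CPM of the Rgs5-positive cells. Adhesion and cytoskeletal genes followed: Flna (filamin A) at 507 CPM against 98.2 CPM, Pdlim7 at 193 CPM against 37.9 CPM, Vcl (vinculin) at 182 CPM against 74.0 CPM and Itga1 (an integrin subunit that binds collagen) at 121 CPM against 13.8 CPM.

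The set stopped short of the genes of mature smooth muscle. Myh11, the smooth muscle myosin heavy chain, and Des, the muscle intermediate filament desmin, had no UMI, where the Rgs5-positive cells had 935 and 568 CPM. Cnn1 (calponin) was at 1.72 CPM, Lmod1 (leiomodin) at 1.38 CPM and Actg2 (enteric actin) at 1.03 CPM. Myocd, the cofactor that directs SRF to smooth muscle genes, had no UMI in these cells or in rule-negative cells. Of 14 genes of SRF, its cofactors and regulators seen, 10 were higher in all 4 libraries but only 3 of them at least 2-fold, and 3 were lower. Srf itself was at 51.8 CPM against 50.9 CPM, and Mkl1 and Mkl2, the SRF cofactors that sense free actin, were at 26.7 and 28.2 CPM against 16.9 and 23.5 CPM. Fhl1 (a LIM protein of muscle) was at 108 CPM against 8.65 CPM. Of the nonmuscle myosin heavy chains, Myh9 was at 627 CPM against 276 CPM and Myh10 at 35.3 CPM against 5.59 CPM, while Myh14 was lower in all 4 libraries, at 18.4 CPM against 33.4 CPM. Mylk, the kinase that activates myosin light chains, was at 41.8 CPM, against 7.34 CPM in rule-negative cells and 1143 CPM in Rgs5-positive cells. In the non-member epithelium with at least 2 of Lgr5, Id4 and Sfrp1, Mylk was at 35.0 CPM, lower than in the Acta2/Tagln cells in 3 of 4 libraries, Myl9 at 76.4 CPM and Cald1 at 660 CPM, both lower in all 4, and Actn1 (alpha-actinin) at 343 CPM, against 300 CPM in the Acta2/Tagln cells. Of 20 actomyosin regulators seen, 13 were higher in each of the 4 libraries, 8 at least 2-fold, among them Rhoc at 159 CPM against 24.3 CPM. The 3 lower in all 4 were Myh14, Rhob (39.7 CPM against 97.0 CPM) and Ezr (122 CPM against 259 CPM).

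**Figure D2:**
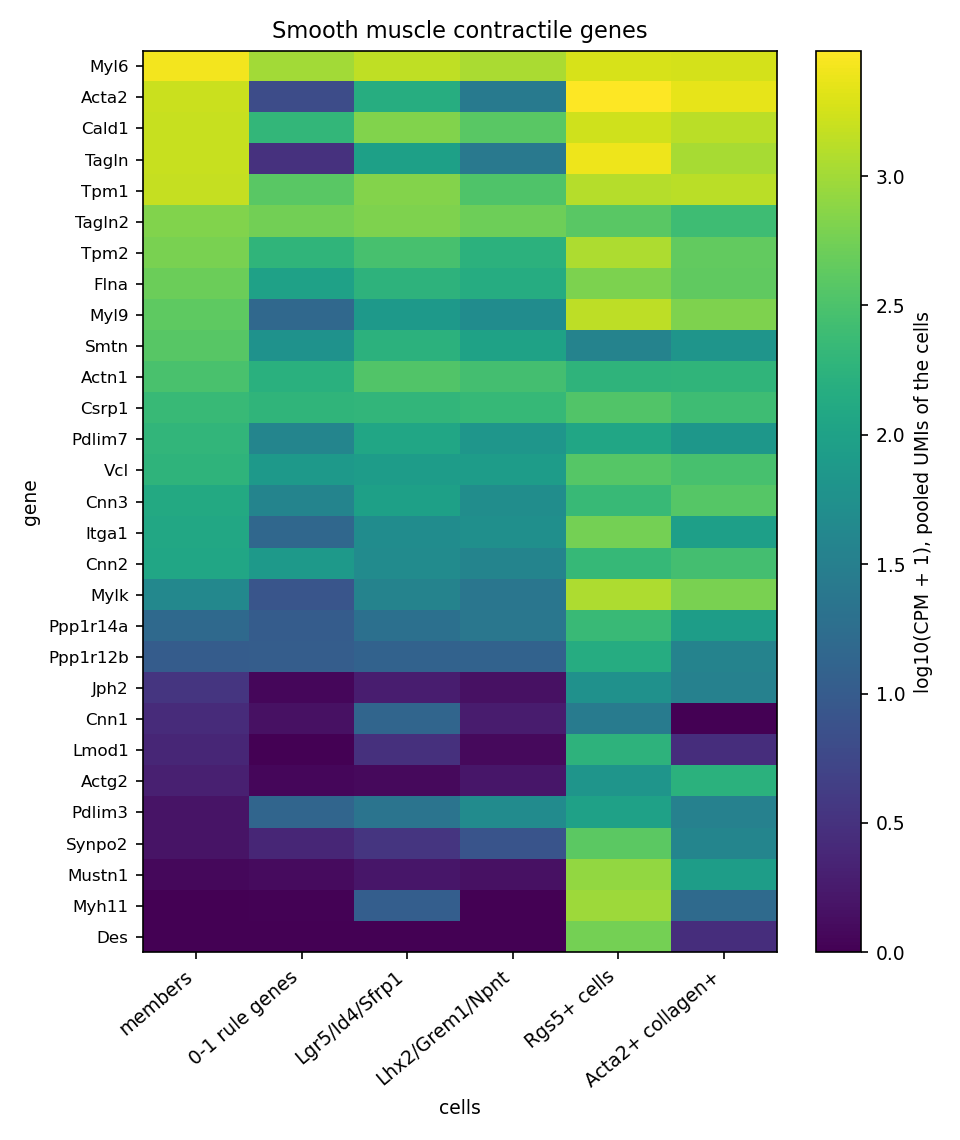
Colour gives log10(CPM + 1) of listed smooth muscle genes (rows) in 6 kinds of cell (columns): members, gated epithelium with 0 or 1 rule gene, non-member epithelium with at least 2 of Lgr5, Id4 and Sfrp1, non-member epithelium with at least 2 of Lhx2, Grem1 and Npnt, Rgs5-positive cells and Acta2-carrying fibroblasts. Members resemble Rgs5-positive cells for Cald1 and Tpm1, and the bottom rows (Myh11 and Des) are at 0 in members.

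A separate group of epithelial cells did carry the mature set. In a clustering of the gated epithelial cells that left out the 7 rule genes, 17 cells, all of PBMCsec 2, formed a cluster led by Cnn1 and Myh11, and none of them was an Acta2/Tagln cell by the rule. Their Myh11 was at 1235 CPM, Cnn1 at 1569 CPM, Oxtr (the oxytocin receptor) at 1003 CPM and Acta2 at 10710 CPM, with Krt14 at 4482 CPM. No UMI of Dio3, Foxe1 or Fgf5 was found in the 17 cells. By the marker list for myoepithelium they were myoepithelial-like, and as cells of 1 library they may belong to that sample alone. In the Acta2/Tagln cells Oxtr was at 1.03 CPM.

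Genes of FGF signalling were high beside Fgf5. Of 12 listed genes of the FGF family and its targets seen outside the rule, 9 were higher in each of the 4 libraries, 5 of them at least 2-fold, and 1 was lower. Dusp6, a phosphatase that ERK signalling induces, stood at 357 and 321 CPM in PBMCsec 3 and 4 and at 428 and 272 CPM in vehicle 3 and 4, and its rule-negative values lay between 33.3 and 65.5 CPM. The ETS factors Etv4 (144 CPM against 14.0 CPM) and Etv5 (94.6 CPM against 8.74 CPM) and the feedback inhibitor Spry1 (105 CPM against 18.5 CPM) were also higher in all 4 libraries. The receptor Fgfr2 was lower in all 4, at 41.3 CPM against 96.2 CPM, and Fgfr1, the receptor that Fgf5 is known to bind, was at 100 CPM against 84.7 CPM. Beside the non-member epithelium with at least 2 of Lgr5, Id4 and Sfrp1, Dusp6 (77.4 CPM there) and Etv4 (33.8 CPM) were again higher in all 4 libraries, whereas Fgfr1 (145 CPM) was lower in all 4.

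Receptors and transporters around Cntfr and Slc1a3 were uneven. Of 8 listed genes of the Cntfr and gp130 pathway seen outside the rule, 2 were higher and 4 lower in all 4 libraries. Il11ra1, the interleukin 11 receptor, was at 1001 CPM against 189 CPM, and the shared signal chain Il6st at 116 CPM against 60.9 CPM. Il6st was uneven among the Acta2/Tagln cells, at 476 CPM in cluster 16 described below and 59.0 CPM in clusters 17 and 11 together. Lifr, which Cntfr needs as a partner, was at 5.68 CPM against 60.4 CPM, and Socs3, a feedback target of this pathway, at 37.0 CPM against 187 CPM. Of 8 listed amino acid genes seen outside the rule, 6 were higher in all 4 libraries. Slc3a2, the common heavy chain of amino acid exchangers, stood at 1414 CPM against 213 CPM, and its partners Slc7a8 at 1137 CPM against 75.0 CPM and Slc7a11, the cystine importer, at 109 CPM against 2.02 CPM. Of 6 thyroid hormone genes seen beside Dio3, 1 was higher and 4 were lower in all 4 libraries. The transporter Slc16a10 was at 0.344 CPM, against 16.3 CPM in rule-negative cells, and the receptor Thra was at 55.7 CPM against 91.9 CPM.

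Follicle position genes were mixed, and of 11 bulge markers seen 4 were higher and 6 lower in all 4 libraries. Lgr5, a follicle stem cell gene, stood at 400 and 271 CPM in PBMCsec 3 and 4 and at 348 and 304 CPM in vehicle 3 and 4, with rule-negative values between 33.1 and 70.6 CPM. The bulge genes Cd34 (227 CPM against 61.2 CPM), Tbx1 (305 CPM against 88.6 CPM) and Lhx2 (252 CPM against 135 CPM) were higher in all 4 libraries. Other bulge genes were nearly absent: Grem1 and Foxc1 had no UMI, Nfatc1 was at 0.516 CPM and Npnt at 3.10 CPM. Vdr, the vitamin D receptor, which the hair cycle requires, was at 819 CPM against 175 CPM. Of 13 hedgehog and Notch genes seen, 8 were higher in all 4 libraries, 3 of them at least 2-fold, and none was lower. Gli1, a target of hedgehog signalling, was at 51.4 CPM against 7.25 CPM and the hedgehog receptor Ptch1 at 139 CPM against 34.5 CPM. Of 29 Wnt and BMP genes seen, 17 were lower in all 4 libraries, 13 of them at least 2-fold, and 8 were higher, 4 of them at least 2-fold. Wnt3 was at 0.516 CPM against 77.1 CPM, Wnt4 at 20.5 CPM against 180 CPM, Axin2, a target of Wnt signalling, at 0.516 CPM against 24.3 CPM, and Sostdc1 at 5.85 CPM against 348 CPM. The Wnt receptors Fzd1 (266 CPM against 49.9 CPM) and Fzd5 (103 CPM against 25.2 CPM) were higher.

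Keratins and layer markers set the cells apart from epidermis and upper follicle. Krt14 was at 1100 CPM against 9641 CPM and Krt5 at 1993 CPM against 4970 CPM, both lower in all 4 libraries, while Krt15 (5676 CPM against 4636 CPM) and Krt17 (3399 CPM against 2993 CPM) were each higher in 2 libraries and lower in 2. Of 9 epidermal markers seen, 8 were lower in all 4 libraries, among them Krt10 at 49.9 CPM against 718 CPM, and 1 was higher. Of 9 upper follicle markers seen, 7 were lower, led by Cst6 at 19.3 CPM against 1156 CPM, and 1 was higher. Of 5 inner root sheath markers seen, 3 were lower and none was higher in all 4. Of 3 companion layer markers seen, 2 were lower and 1 was higher in all 4 libraries. Krt6a, a companion layer and wound keratin, was at 13.1 CPM against 449 CPM. Of the 11 markers of the lower outer root sheath seen outside the 7 rule genes, 5 were higher (Lgr5, Id4, Sfrp1, Il11ra1 and Cdh3). Another 4 were lower (Krt14, Krt5, Sox9 and Tgm5), of which Krt14 and Krt5 also set the keratin gate. Members of several follicle layers were thus high and low side by side, and no single layer was assigned.

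Of 27 integrin and basement membrane genes seen, 17 were higher in all 4 libraries, 11 of them at least 2-fold, and 7 were lower. Col4a1 (type IV collagen) stood at 1103 and 618 CPM in PBMCsec 3 and 4 and at 661 and 505 CPM in vehicle 3 and 4, with rule-negative values between 32.3 and 68.8 CPM. The laminin chains Lamb1 (382 CPM against 51.5 CPM), Lama5 (193 CPM against 30.6 CPM) and Lamc1 (144 CPM against 31.7 CPM) and the proteoglycan Hspg2 (173 CPM against 36.4 CPM) were higher. Among the lower genes were Col17a1 at 324 CPM against 977 CPM, Lamb3 at 42.1 CPM against 136 CPM and Col7a1 at 7.91 CPM against 58.6 CPM.

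Immediate early and dissociation genes, which enzymes and handling can induce, were lower in all 4 libraries for 20 of 23 genes, and none was higher in all 4. Their sum was 3991, 2886, 4061 and 2756 CPM in PBMCsec 3 and 4 and vehicle 3 and 4, against 19320, 8948, 12724 and 13099 CPM in the rule-negative cells of the same libraries, so the ranges did not overlap. In the non-member epithelium with at least 2 of Lgr5, Id4 and Sfrp1 the sums were 12712, 3460, 6398 and 4509 CPM, each above the value of the Acta2/Tagln cells in its library, with the 3460 CPM of PBMCsec 4 inside their range. Atf3 was at 12.4 CPM against 1035 CPM and Fos at 98.0 CPM against 1039 CPM, whereas Egr1 was at 502 CPM against 603 CPM. Of 9 interferon response genes seen, 5 were lower in all 4 libraries and 2 higher, and B2m was at 672 CPM against 1506 CPM. Whether the time in enzyme differed between kinds of cell was not tested.

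The 20 genes outside the rule with the largest ratio over rule-negative cells were Fndc1, Igfbp7, Myl9, Spon1, Mgp, Specc1, Slc7a8, Gjb2, Slc39a10, Basp1, Col4a1, Ggt1, Fhod3, Ckb, Slc39a14, Vcan, Fbln7, Aebp1, Slc7a11 and Fn1. Several encode secreted matrix proteins. Fndc1, a fibronectin-domain protein, led with a log2 ratio of 4.49, at 425, 493, 343 and 497 CPM in PBMCsec 3 and 4 and vehicle 3 and 4 against 9.16 to 15.2 CPM. Igfbp7, an insulin-like growth factor binding protein, followed at 1058 CPM against 45.0 CPM, and Gjb2 (connexin 26) stood at 2868 CPM against 219 CPM. Fhod3, a formin of muscle, was at 316 CPM against 21.3 CPM and had no UMI in the Rgs5-positive cells. Mgp (matrix Gla protein), Fn1 (fibronectin) and Vcan (versican) were at 265, 403 and 129 CPM against 9.07, 32.0 and 3.48 CPM. The 10 with the lowest ratio were Serpinb2, Clca3a2, Atf3, Cst6, Anxa8, Ndufa4l2, Ly6d, Klf4, Aqp3 and Dusp1, from log2 −5.83 for Serpinb2 to −4.63 for Dusp1.

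**Figure D3:**
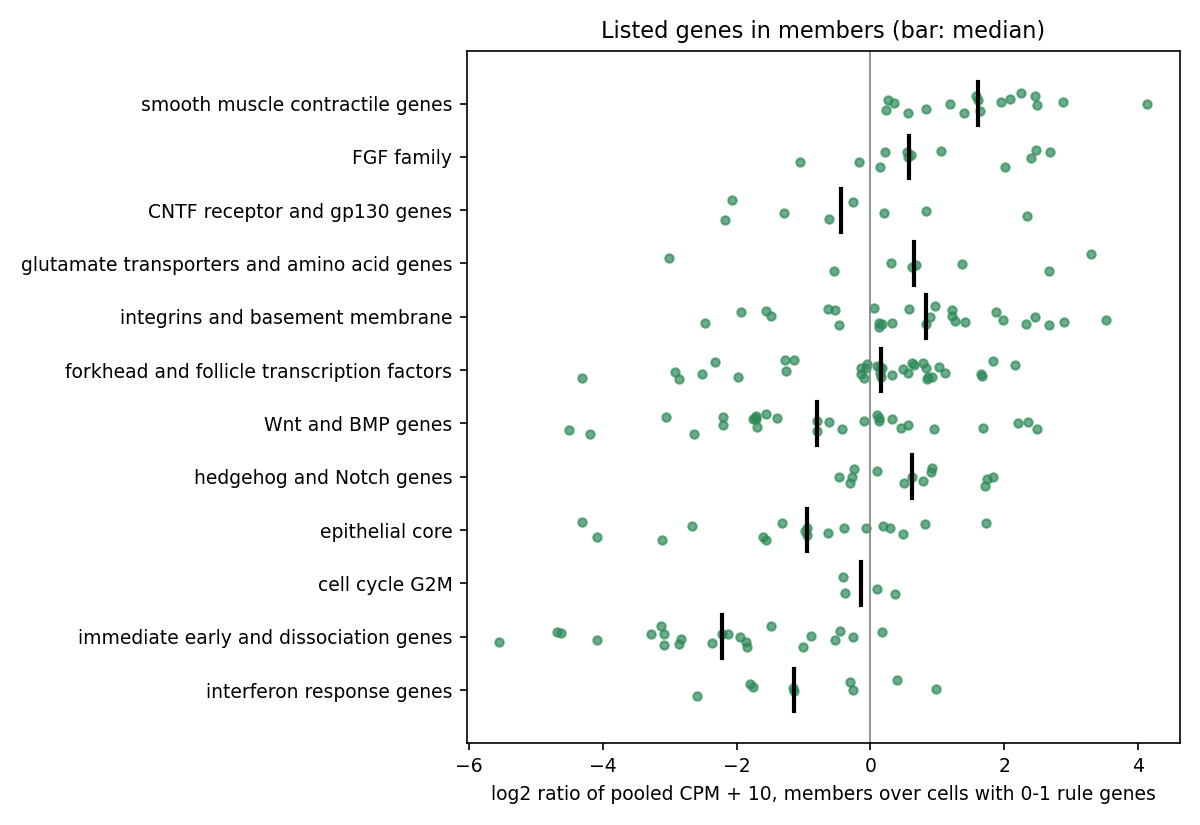
Each point is a listed gene outside the rule that was seen in at least 10% of members or of rule-negative cells, and the horizontal axis gives the log2 ratio of pooled CPM + 10 of members over cells with 0 or 1 rule gene. The black bar is the list median, at 1.60 for smooth muscle genes and −2.21 for immediate early genes.

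The cells were not uniform. In the clustering without the rule genes, which gave 26 clusters, 497 of the 581 cells (85.5%) fell into 3 of them, and 14 clusters held none. Cluster 17 held 222 of them among 259 cells, cluster 11 held 189 among 425, and cluster 16 held 86 among 87. All 3 drew on the same 4 libraries. Cluster 17 took 36.4% and 38.7% of the cells of PBMCsec 3 and 4 and 39.5% and 38.7% of those of vehicle 3 and 4. Cluster 11 took 32.7%, 39.3%, 26.0% and 33.8%, and cluster 16 took between 11.7% and 19.0%. Because clusters are made from the cells' own genes, the differences between them are descriptions.

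Cluster 17 had the highest Acta2 (2222 CPM) and Dio3 (283 CPM) of the 3. Outside the rule, its leading genes over the other 2 were Csn3 (a casein) at 196 CPM against 11.7 CPM, the prostaglandin transporter Slco2a1 at 118 CPM against 12.1 CPM, Cpe at 168 CPM against 23.4 CPM and Pthlh (parathyroid hormone-like hormone) at 211 CPM against 32.5 CPM. Dusp6 was at 565 CPM in this cluster and Etv4 at 202 CPM. Ptgs2, which makes prostaglandins, was at 79.9 CPM against 16.8 CPM.

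Cluster 11 had the least Fgf5 (22.9 CPM) and Dio3 (62.9 CPM) but 1369 CPM of Acta2 and the highest Myl9 (482 CPM). Its leading genes included Sfrp1, a secreted Wnt inhibitor, at 1446 CPM against 278 CPM, Scrg1 at 103 CPM against 5.29 CPM, the protease gene Pappa at 80.1 CPM against 2.98 CPM, Col12a1 at 335 CPM against 72.1 CPM and Scx (scleraxis, a tendon transcription factor) at 50.4 CPM against 6.94 CPM. Sox9 was at 213 CPM and Id4 at 860 CPM, the highest of the 3 clusters, while Lgr5 was lowest here, at 317 CPM against 327 CPM in cluster 17 and 476 CPM in cluster 16. Its 236 other cells held a median of 2 rule genes and 208 CPM of Acta2.

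Cluster 16 had the most Fgf5 (567 CPM, detected in 98.8% of its cells), Slc1a3 (784 CPM) and Foxe1 (422 CPM), with 1022 CPM of Acta2 and 1690 CPM of Tagln. Its leading genes were the transcription factor Cux1 at 1132 CPM against 74.4 CPM, the metallothionein Mt1 at 335 CPM against 21.8 CPM, Fabp5 at 657 CPM against 68.9 CPM, Slc7a11 at 502 CPM against 52.7 CPM, Flrt2 (a ligand that FGF receptors and axon guidance receptors bind) at 1489 CPM against 180 CPM and the zinc importer Slc39a10 at 4527 CPM against 630 CPM. Sfrp1 (2.47 CPM) and Sox9 (19.7 CPM) were nearly absent, and Cd34 was at 83.8 CPM against 295 CPM in cluster 17. Outside these 3 clusters, 27 of the 581 cells fell into the 2 clusters led by mitotic genes. A UMI of the cell division genes Mki67 or Top2a was found more widely, in 117 of the 581 cells. Mki67 was detected in 14.9% of the Acta2/Tagln cells of cluster 17, 11.1% of those of cluster 11 and 1.16% of those of cluster 16.

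**Figure D4:**
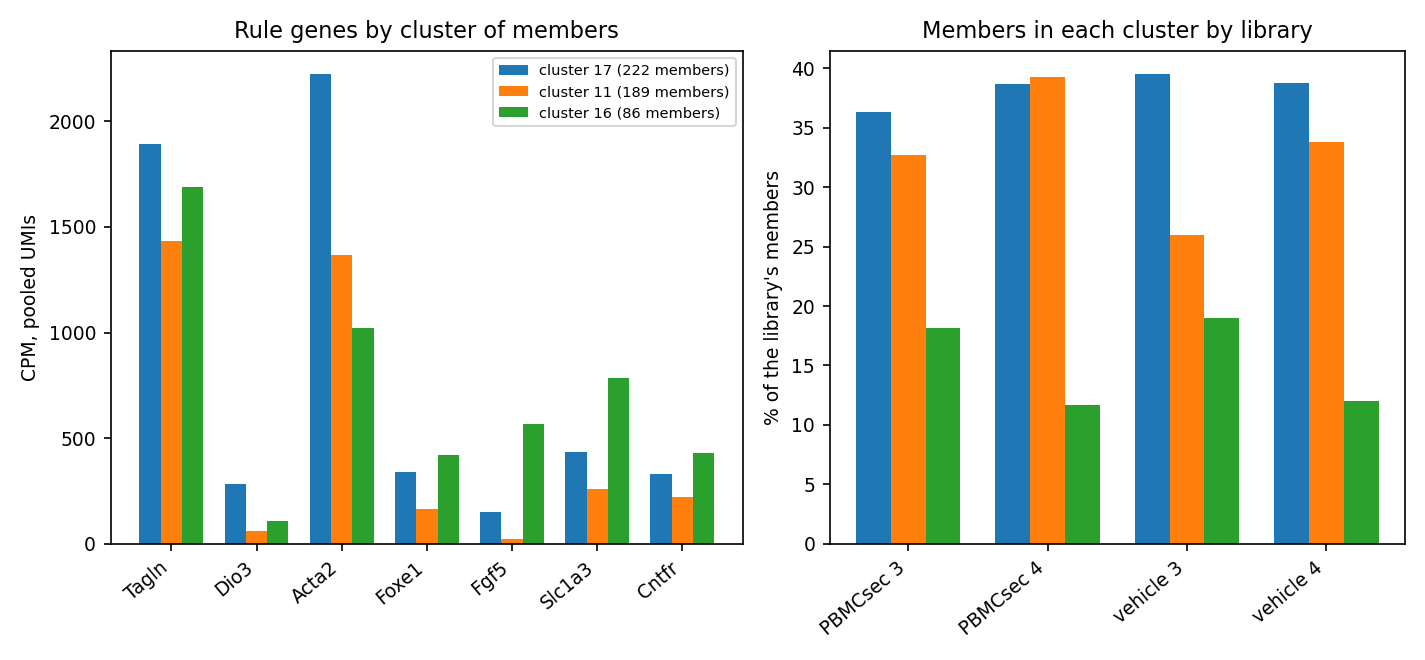
The left panel gives the pooled CPM of the 7 rule genes in the members of clusters 17, 11 and 16, and the right panel gives the percentage of each library's members that fell into these clusters. Fgf5 is highest in cluster 16 and Acta2 in cluster 17, and all 3 clusters occur in each of the 4 libraries.

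Gene expression after PBMCsec was compared with vehicle in the 4 libraries that held at least 10 of the cells: PBMCsec 3 (55 cells) and 4 (163 cells) against vehicle 3 (200 cells) and 4 (142 cells). UMIs were summed per library and tested with edgeR's quasi-likelihood test over 9646 genes, with Benjamini-Hochberg adjustment. Of these, 11 genes (0.114%) passed an adjusted p of 0.05: Ckb, Gnmt, Areg, Slpi and Hbb-bs were higher and Krt75, Krt71, Ly6d, Atp1b1, Apbb1ip and Aspm lower. At an unadjusted p under 0.05, 147 were higher and 220 lower. With 2 libraries on each side, the calls rest on few mice and, for most of these genes, on few cells. No gene was called by edgeR with a mitochondrial limit of 5% (94 higher and 118 lower at an unadjusted p under 0.05) or when the 3 libraries with 5 to 9 of the cells were added (42 higher and 59 lower), and DESeq2 called only Ckb and Krt75.

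Ckb, the brain-type creatine kinase, which buffers ATP, rose across many cells. It stood at 382 and 331 TMM-normalised CPM in PBMCsec 3 and 4 and at 150 and 104 in vehicle 3 and 4. It was detected in 38 of 55 and 101 of 163 cells after PBMCsec and in 99 of 200 and 58 of 142 after vehicle. Its log2 change was 1.48 ± 0.23 (SE, adjusted p = 0.00047, edgeR). Gnmt, a methyltransferase of the methionine cycle, stood at 142 and 96.7 against 37.5 and 60.8 normalised CPM (log2 1.25 ± 0.26, SE, adjusted p = 0.0201, edgeR). In the rule-negative cells Gnmt was at 31.8 and 22.0 CPM in PBMCsec 3 and 4 and at 12.5 and 21.7 CPM in vehicle 3 and 4. Among the Acta2/Tagln cells it was at 11.7 CPM in cluster 17, 139 CPM in cluster 11 and 105 CPM in cluster 16. Atp1b1, the beta subunit of the sodium pump, stood at 32.7 and 66.3 against 171 and 113 normalised CPM and was detected in 13 of 55 and 51 of 163 cells against 107 of 200 and 71 of 142 (log2 −1.40 ± 0.27, SE, adjusted p = 0.00844, edgeR). For these 3 genes the 2 groups of libraries did not overlap, as held for 29.1% of all genes tested. Each of the 3 lost its call when 1 vehicle library was left out: Ckb without vehicle 4 (log2 1.24, adjusted p = 0.255, edgeR), Gnmt without vehicle 3 (log2 0.93, adjusted p = 0.999, edgeR) and Atp1b1 without vehicle 3 (log2 −1.08, adjusted p = 0.454, edgeR). Atp1b1 moved to −2.12 without PBMCsec 4. Over 14 alternatives Ckb was called in 10 (adjusted p from 2.35e-14 to 0.9999), Atp1b1 in 8 (4.41e-07 to 0.9999) and Gnmt in 7 (7.70e-06 to 0.9999), each with its direction kept in all 14. Of the 11 genes, 10 were still called without PBMCsec 3, 8 without PBMCsec 4, 6 without vehicle 3 and 7 without vehicle 4.

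Of the other calls, several rested on few cells. Krt75, a companion layer keratin, was at 12.7 and 8.36 against 46.2 and 115 normalised CPM (log2 −3.04 ± 0.39, SE), and 1 cell gave 72 of the 166 UMIs of vehicle 4. Its log2 change was −0.87 with 5 of 7 rule genes. Krt71, an inner root sheath keratin, fell with log2 −1.65 ± 0.33 (SE), and 1 cell gave 58 of the 95 UMIs of vehicle 3. It was not called without vehicle 3 (log2 −1.55, adjusted p = 0.170, edgeR) and moved to −0.89 with 5 of 7 rule genes. Of the 93 Ly6d UMIs of vehicle 4, 52 came from 1 cell, and of the 34 UMIs of the mitotic spindle gene Aspm there, 20 did. With all 4 libraries the log2 change was −1.87 ± 0.37 (SE) for Ly6d and −2.58 ± 0.54 (SE) for Aspm. Without vehicle 4 neither was called (Ly6d log2 −1.27 and Aspm −2.28), nor was Aspm without PBMCsec 4 (log2 −2.38). Ly6d was at −0.04 with 5 of 7 rule genes. Areg, the EGF receptor ligand amphiregulin, rose with log2 5.52 ± 0.90 (SE), and 18 of the 19 UMIs of PBMCsec 3 came from 1 cell. Without PBMCsec 3 it was not called (log2 4.67, adjusted p = 0.111, edgeR). Slpi, a protease inhibitor, stood at 36.4 and 276 against 43.4 and 29.0 normalised CPM, so its groups overlapped and PBMCsec 4 alone was high. Without PBMCsec 4 its log2 change was −0.01.

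Hbb-bs, a haemoglobin chain of red blood cells, was at 27.3 and 57.3 against 4.89 and 12.4 normalised CPM. In the rule-negative cells it was at 25.1 and 1013 CPM in PBMCsec 3 and 4 and at 4.25 and 11.2 CPM in vehicle 3 and 4. The order of the 4 libraries was the same there. In the non-epithelial cells it was at 163 and 597 CPM in PBMCsec 3 and 4 and at 85.5 and 1571 CPM in vehicle 3 and 4, so its order there was another. It was not called without PBMCsec 4 (log2 1.70, adjusted p = 0.285, edgeR) or without vehicle 3 (log2 1.87, adjusted p = 0.0551, edgeR). Apbb1ip, an adaptor of leukocytes and platelets, was at 0 and 2.39 against 15.8 and 15.9 normalised CPM, and in the non-epithelial cells of the same libraries it lay between 91.3 and 115 CPM. Its log2 change was −3.10 ± 0.64 (SE). It was not called without vehicle 3 (log2 −3.12) or without vehicle 4 (log2 −3.11), although the change was about as large. Without PBMCsec 4, which left 0 UMIs after PBMCsec, the fitted value was −7.35. The part of free RNA and of attached cells in these 2 results was not tested. With only the 497 cells of the 3 main clusters, an alternative added after the results were seen, 4 of the 11 genes were called (Ckb, Areg and Hbb-bs higher and Atp1b1 lower), while Krt75, Krt71 and Ly6d were at log2 −0.96, −0.04 and −0.32.

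**Figure D5:**
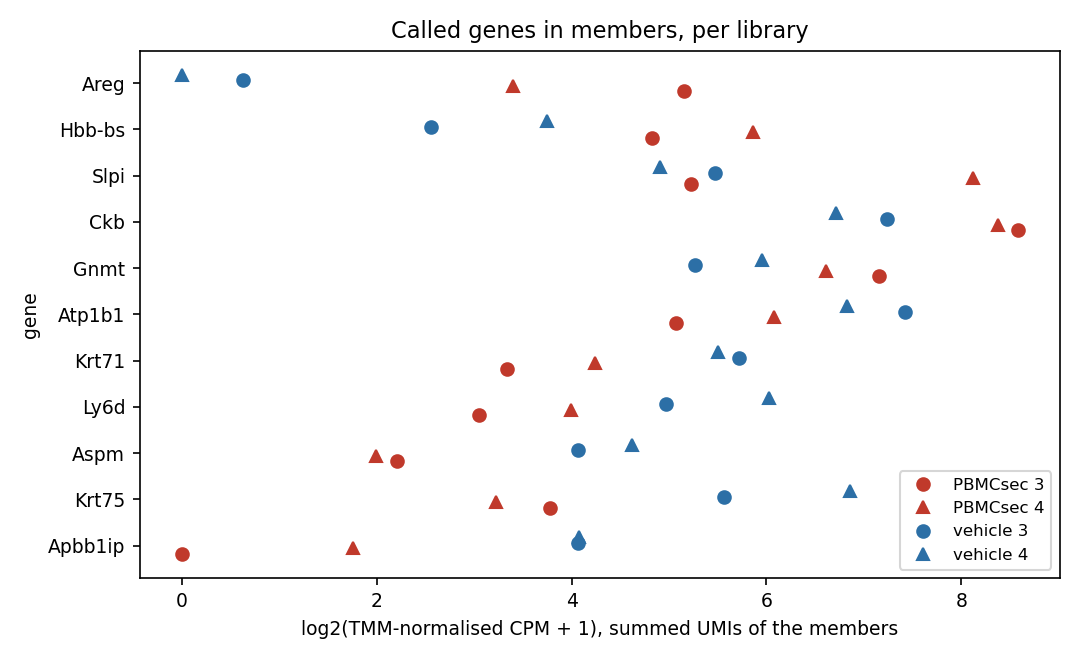
Each row is one of the 11 genes called between PBMCsec and vehicle in the members, and the horizontal axis gives log2(TMM-normalised CPM + 1) of the summed UMIs of each library (red PBMCsec, blue vehicle; circles library 3, triangles library 4). The red and blue points are apart for 10 of the genes and overlap for Slpi.

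The genes that chose the cells are given as values, with no test. Tagln stood at 2120 and 2070 against 1187 and 1332 normalised CPM and Acta2 at 1711 and 2103 against 1458 and 1397. Fgf5 stood at 105 and 134 against 240 and 149 normalised CPM. Dio3 stood at 98.2 and 156 against 181 and 166 normalised CPM. The 2 groups of libraries did not overlap for these 4 genes and overlapped for Foxe1, Slc1a3 and Cntfr, beside 29.1% of all genes that did not overlap. Of 19 smooth muscle genes tested outside the rule none was called. At an unadjusted p under 0.05, 4 were higher, among them Myl9, and none lower, beside 1.52% higher and 2.28% lower over all genes, and their median log2 change was 0.27 against 0.00 over all genes. Of 16 G2/M genes tested none was called and 8 were lower at an unadjusted p under 0.05, among them Cenpe and Kif23, with a median of −0.90. The groups did not overlap for 7 of the 16. The 21 listed G2/M genes together summed to 485 and 189 CPM in PBMCsec 3 and 4. In vehicle 3 and 4 they summed to 463 and 430 CPM, so the sums overlapped. The 2 fibroblast markers tested were also lower at an unadjusted p under 0.05 and not called, Dcn at 14.5 and 16.1 against 30.4 and 48.4 normalised CPM and Dpt at 3.64 and 3.58 against 6.52 and 12.4, and their part in these shifts was not tested. Of 17 S phase genes none was called and 2 were higher (Dut and Gins2), with a median of 0.35. Of 12 FGF genes outside the rule none was called, and Fgfbp1 alone passed an unadjusted p of 0.05, as higher. With DESeq2 no gene of these lists was called either.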

How the data were processed

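Raw UMI counts per gene and cell barcode were deposited as 1 matrix per library by the authors, who used Cell Ranger (3.0.2 in the submitters' processing notes) and mm10. Cells were filtered and gated as stated above, and Gm42418, Gm17056 and Gm26917, removed by the study, were left out of levels and tests. The members, gene lists and tests were chosen with earlier results of these data known. Levels are CPM of pooled UMIs, and ratios added 10 CPM. Cells were clustered with scanpy 1.11.5 on 2000 variable genes without the 7 rule genes (30 components, Leiden resolution 1). No doublets were removed. Libraries held 14753926 to 37880651 UMIs. Summed counts were tested with edgeR 4.0.16 (TMM, quasi-likelihood), tested first on simulated data, and with DESeq2 1.42.0. Intervals and floors cover counting error only. Each library is 1 mouse. Named genes were the 7 rule genes, listed genes, the 20 highest and 10 lowest ratios (detected in at least 25% of the higher cells, alike in all 4 libraries), all called genes and, chosen after their values were seen, leading genes of the clusters. Alternatives changed the rule, mitochondrial limit, doublet scores, normalisation, filter and libraries. Single values of a few listed genes are not reported here.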

Additional observations from a re-analysis of the deposited data

Results flagged for a closer look

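The share of Acta2/Tagln epithelial cells among all cells that passed the quality filter was 10.2% in PBMCsec 4, far from the other PBMCsec libraries at 0.648%, 0.945% and 2.17%. Tagln in the cells of PBMCsec 2 was at 162 CPM, far below the other PBMCsec libraries, and rested on 5 cells. Of 11 groups looked at for a library far from the rest, 2 held one, and chance gives about 1 in 20. In the gated epithelium outside the rule, the 17 cells with Cnn1, Myh11 and Oxtr all came from PBMCsec 2, and no vehicle library held a cell of that cluster.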

How the results depend on the processing

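The difference in share between PBMCsec and vehicle had no stable sign. Among gated epithelial cells it was 2.73 percentage points with 3 of 7 rule genes and 2.56 with a mitochondrial limit of 5%, and it ran from −5.10 (without PBMCsec 4) to 2.22 (without vehicle 4) when single libraries were left out. Among all cells that passed the filter it was 0.237 with the limit of 5% and ran from −3.05 to 0.458. The cause was not tested.

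The count of 5 higher and 6 lower genes moved to 1 and 1 with DESeq2, 16 and 22 with no filter on low counts, 2 and 0 with 5 of 7 rule genes and, added after the data were seen, 3 and 1 in the 3 main clusters. It was 0 and 0 with 3 of 7 rule genes, where 7 libraries instead of 4 reached 10 cells, so that rule and libraries changed together (109 and 73 at an unadjusted p under 0.05, edgeR), with the limit of 5% and with libraries of at least 5 of the cells. Leaving out 1 library, which leaves a lone sample that is assumed to vary like the other group, gave 8 to 27 higher and 6 to 25 lower genes: 11 and 25 without PBMCsec 3, 27 and 19 without PBMCsec 4, 8 and 6 without vehicle 3 and 12 and 11 without vehicle 4. Ckb kept its direction in all 14 alternatives and was called in 10.

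Small log2 changes turned (those of the rule genes are fitted values given with no test). Foxe1 was at −0.17 with at least 5 cells, −0.45 with 3 of 7 rule genes and −0.22 to 0.38 over the left-out libraries. Slc1a3 was at 0.18 with the limit of 5% and −0.24 to 0.0295 over the left-out libraries. Cntfr was at 0.14 both with at least 5 cells and with the limit of 5%, and −0.46 to 0.22 over the left-out libraries. Slpi ran from −0.0120 (without PBMCsec 4) to 2.91 over the left-out libraries and up to 3.81 over all alternatives.

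The labels give both groups the same replicate numbers, without saying that a number marks a shared day or litter. With only 2 pairs in the gene test (correlation of same-numbered deviations 0.195), the numbers were not taken as pairing. With the replicate block, 21 genes were called higher and 26 lower, the same 11 among them. The paired exact permutation p of the shares was 0.875 and 0.75.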
